A study of Mus musculus with 8 samples.

Results

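Genes known from T cells and natural killer (NK) cells were examined in sorted mouse pro-B cells, with and without menin, the product of Men1. The set was a list of 35 genes, 19 of T cells and 16 of NK and cytotoxic cells. It was chosen with earlier results of these data known. Its members were all array probe sets annotated with 1 of these symbols alone. This gave 52 of 45037 probe sets, for 33 of the 35 genes. Lck is in no row of the gene table used here, and Klrb1c shares its only probe set with Klrb1b, so neither has values as a member. The RNA was that of bone marrow pro-B cells of Fraction B, a stage sorted as B220+ CD43+ HSA+ BP-1-. Of 8 mice, 4 were MenF/F (control) and 4 were Rag1-cre;MenF/F (menin-deficient), aged 2 to 3 weeks by the sample labels and 3 weeks by the series text. Both groups carried the floxed Men1 allele, and Cre was carried by the menin-deficient mice alone, so what Cre does and what the loss of menin does cannot be told apart. Cre of this carrier is named for Rag1, a recombinase gene that early lymphoid progenitors and developing T cells use as well.

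Menin is a chromatin protein that joins histone methyltransferases of the MLL family at target genes. B-cell, T-cell and NK-cell lineages arise from shared lymphoid progenitors, and commitment to the B lineage goes with silencing of T-cell and NK-cell genes. A sorted population may hold some cells of another lineage, which raises many markers of that lineage at once in the array concerned. In RNA of a whole population, a change in the number of such cells and a change in RNA per cell cannot be told apart.

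All values below are deposited log2 expression values, 1 array per mouse. The lowest value of the table is 2.08, and between 37.1% and 37.5% of probe sets sat at it on each array, so folds against low values are approximate. Men1 checked the labels: its control level was 9.54 ± 0.256, and it fell to 8.15 ± 0.278 on the menin-deficient side (SD, n = 4 each). Defining markers of pro-B cells were high in both groups, with a mean of 14.2 to 14.3 over 15 markers in control and 14.3 to 14.4 in menin-deficient arrays. A gene was tested on its brightest probe set if that probe set lay above the 40th percentile of its own array on at least 4 of 8 arrays. Of the 33 members with a probe set, 25 were tested, 11 of T cells and 14 of NK cells, and 24 of the 25 were above that percentile on all 8 arrays. None passed through the menin-deficient arrays alone. Some members were far above the lowest value in control arrays already, with means of 12.33 for Notch1, 9.76 for Gzma, 9.24 for Nkg7 and 8.93 for Lat.

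Start regions of 4 members are shown because they stand for the patterns described next. Lat rose in every menin-deficient array, and Cd3g rose while its neighbour Cd3d lay at or near the lowest value. Ncr1 is an NK-cell receptor that rose. Each sequence runs 5′ to 3′ from 250 bases before to 50 bases after the annotated start, from RefSeq (GRCm38.p6): Lat at chr7:126369519-126369818, minus strand; Cd3g at chr9:44980382-44980681, minus strand; Cd3d at chr9:44981536-44981835, plus strand; Ncr1 at chr7:4337465-4337764, plus strand. Capitals mark matches on either strand. The motif searched for Runx factors, regulators of lymphoid genes, was TGTGGT. For factors of the ETS family, which include lymphoid and myeloid regulators, it was AGGAAG. For GATA factors, among them the T-lineage regulator Gata3, it was AGATAA. Overlapping matches of different motifs were each counted.
Lat: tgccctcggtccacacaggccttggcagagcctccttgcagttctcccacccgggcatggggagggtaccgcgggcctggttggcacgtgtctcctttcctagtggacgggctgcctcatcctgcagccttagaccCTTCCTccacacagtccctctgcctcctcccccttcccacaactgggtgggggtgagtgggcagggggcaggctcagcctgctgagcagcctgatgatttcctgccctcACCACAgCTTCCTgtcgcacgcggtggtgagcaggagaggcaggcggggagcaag
Cd3g: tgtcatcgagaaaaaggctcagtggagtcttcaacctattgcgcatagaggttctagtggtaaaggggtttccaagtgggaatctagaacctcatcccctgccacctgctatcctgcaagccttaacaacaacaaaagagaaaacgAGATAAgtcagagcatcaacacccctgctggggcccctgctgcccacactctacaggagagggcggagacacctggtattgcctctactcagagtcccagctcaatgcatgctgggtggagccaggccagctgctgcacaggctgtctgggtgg
Cd3d: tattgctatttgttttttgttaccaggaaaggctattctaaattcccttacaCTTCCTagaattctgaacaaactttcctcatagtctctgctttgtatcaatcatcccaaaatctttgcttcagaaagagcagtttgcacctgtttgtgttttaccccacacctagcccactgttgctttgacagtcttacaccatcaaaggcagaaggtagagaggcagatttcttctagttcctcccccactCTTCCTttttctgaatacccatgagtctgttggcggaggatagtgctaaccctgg
Ncr1: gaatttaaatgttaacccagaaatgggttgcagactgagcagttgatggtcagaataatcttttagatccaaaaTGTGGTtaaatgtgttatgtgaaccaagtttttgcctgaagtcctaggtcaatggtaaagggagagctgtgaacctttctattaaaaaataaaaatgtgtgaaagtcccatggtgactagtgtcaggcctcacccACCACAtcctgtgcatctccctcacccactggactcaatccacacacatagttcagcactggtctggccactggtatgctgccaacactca
The Lat window held 1 Runx and 2 ETS matches and 10 CpG dinucleotides. Cd3g held 1 GATA match, Cd3d 2 ETS matches and Ncr1 2 Runx matches, with 4, 1 and 0 CpG. No protein-coding gene lies between Cd3g and Cd3d, whose windows are 854 bases apart. Among all 32851 windows of this length, 16.8% held the Runx core, 35.4% the ETS core and 11.2% the GATA core. Of 23 members with a window (the first listed where a gene had several), 10 held the Runx core, 10 the ETS core and 1 the GATA core. Only 8 of the 13 members that rose had a window, and their median number of CpG was 3. The median was 6.5 in the 10 windows of tested members that did not pass. It was 1 in the 5 of members with no probe set past the filter, and 7 over all windows. These matches are a description of letters and say nothing of binding.

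In the fit across all 11885 genes (limma, Benjamini-Hochberg adjusted p under 0.05), 13 of the 25 tested members rose in menin-deficient pro-B cells and 0 fell. T-cell genes made up 7 of these rises and NK-cell genes 6. Across all tested genes 16.2% were called higher and 5.17% lower. The members' share of rises lay above that background, with no test of the difference. Because the members were chosen with earlier results of these data known, their share cannot be read apart from that choice. The median difference was 0.98 over the 11 T-cell genes and 0.85 over the 14 NK-cell genes, against 0.11 over all tested genes. Groups did not overlap, with every menin-deficient array above every control array, in 10 T-cell and 7 NK-cell genes, where the same held for 20.3% of all tested genes. Setting every array's median tested gene to the same level took 0.13 from every difference, after which 6 T-cell and 5 NK-cell genes were higher (7.67% of all genes) and 0 lower (8.17% of all genes). With each probe set tested on its own, 13 of the 30 member probe sets past the filter were higher, against 9.34% of all 26790. Of the 35 genes, 8 with a probe set had none above the filter and are described by their values only.

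**Figure D1:**
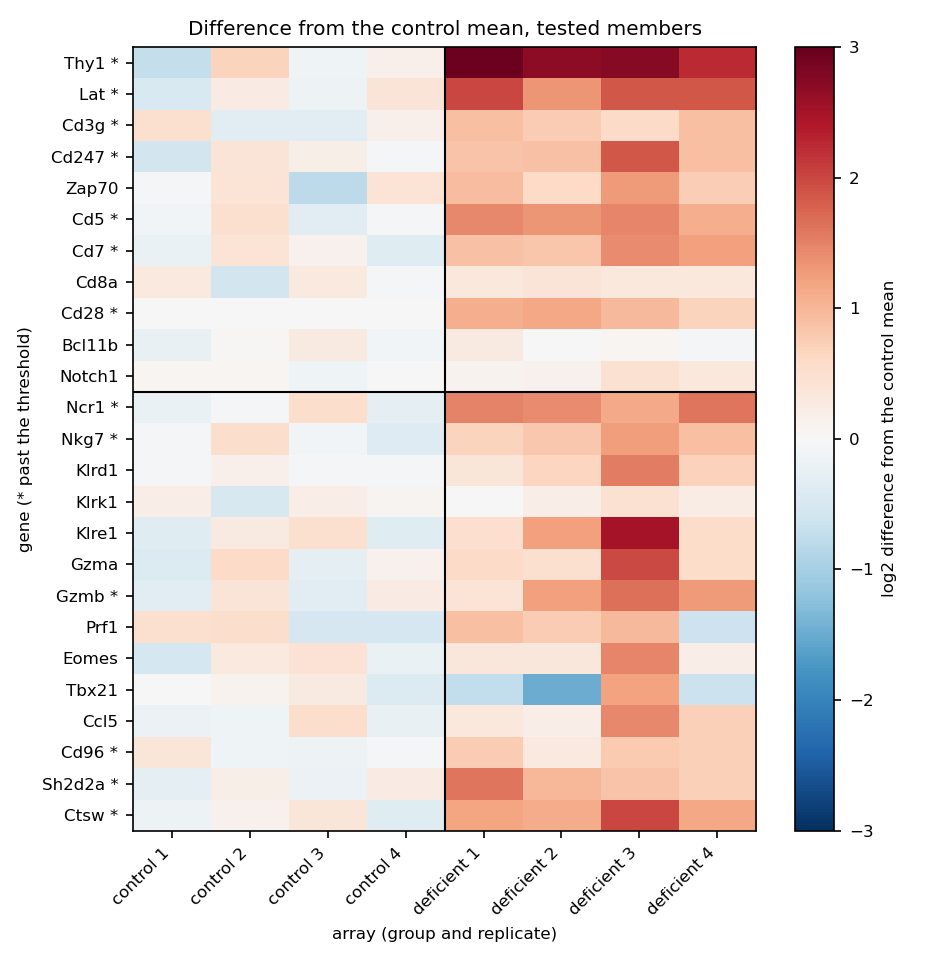
Difference of each array from the control mean (log2) for the 25 tested members, T-cell genes above the horizontal line and NK-cell genes below it, control arrays on the left and menin-deficient arrays on the right. Asterisks mark the 13 members past the threshold. Thy1, Lat, Cd5 and Ncr1 are raised in all 4 menin-deficient arrays, while Klre1, Gzma, Eomes, Ccl5 and Tbx21 are highest in menin-deficient replicate 3.

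Among surface molecules of T cells, Thy1 changed most. Thy1, a small glycoprotein anchored in the outer membrane of T cells, read 6.53, 7.92, 7.11 and 7.40 across the control arrays and 10.18, 9.93, 9.97 and 9.48 across the menin-deficient arrays, each in order of replicate number, as for all genes that follow. The lowest menin-deficient array thus lay well above the highest control array. The difference was 2.65 (SE 0.30, limma adjusted p = 0.00274), or 6.26-fold. Cd5, a receptor that dampens antigen-receptor signals, read 6.67, 7.25, 6.41 and 6.70 in control and 8.20, 8.08, 8.22 and 7.85 in menin-deficient arrays. Its difference was 1.33 (SE 0.18, limma adjusted p = 0.00493) and the menin-deficient arrays lay close together. Cd7, an immunoglobulin-family molecule of T cells, NK cells and early progenitors, read 5.56, 6.15, 5.88 and 5.39 in control and 6.62, 6.59, 7.17 and 6.97 in menin-deficient arrays. Cd7 rose by 1.09 (SE 0.20, limma adjusted p = 0.0128). None of these 3 rises was lost when any array was left out.

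Cd28, the main costimulatory receptor of T cells, was near background. It read 2.51, 2.49, 2.49 and 2.49 in control and 3.57, 3.66, 3.47 and 3.17 in menin-deficient arrays, and 3 control arrays held the same value to within 0.001. The groups did not overlap and the difference was 0.98 (SE 0.10, limma adjusted p = 0.00232). Its fold of 1.97 is set against a control level without spread, and its other probe set was at the lowest value on all 8 arrays.

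Of the T-cell receptor subunits measured, Cd3g and Cd247 rose, while Cd3d and Cd3e lay at or near the lowest value. Cd3g, Cd3d and Cd3e encode CD3 subunits of that receptor, and Cd247 its zeta chain, which NK-cell receptors use too. Cd3e was at the lowest value on all 8 arrays, and Cd3d on 7 of them, with 2.18 in menin-deficient replicate 4. Cd3g read 4.43, 3.63, 3.63 and 4.09 in control and 4.84, 4.70, 4.52 and 4.85 in menin-deficient arrays. Here menin-deficient replicate 3 was the lowest of its group, and control replicates 2 and 3 held the same value to within 0.001. The rise of Cd3g was 0.78 (SE 0.20, limma adjusted p = 0.0309), and it missed the threshold after centring (0.0520) and without control replicate 2, 3 or 4 or menin-deficient replicate 1, 2 or 4 (adjusted p from 0.0553 to 0.0764). Cd247 read 4.23, 5.15, 4.95 and 4.74 in control and 5.62, 5.65, 6.63 and 5.68 in menin-deficient arrays, with replicate 3 standing above the rest. It rose by 1.13 (SE 0.29, limma adjusted p = 0.0341), and did not pass without control replicate 1, 3 or 4 or menin-deficient replicate 2 or 4 (adjusted p from 0.0564 to 0.0766). Without menin-deficient replicate 3 its difference was 0.88 and still passed (limma adjusted p = 0.0412). The other 3 Cd247 probe sets lay at 2.08, except for 2.20 in control replicate 2.

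Of the signalling genes behind the receptor, Lat and the adaptor Sh2d2a rose, and Zap70 did not pass. Lat, the membrane adaptor that the kinase Zap70 phosphorylates, read 8.47, 9.18, 8.77 and 9.31 in control and 10.93, 10.26, 10.81 and 10.79 in menin-deficient arrays. All menin-deficient arrays were above all control arrays, and Lat rose by 1.76 (SE 0.22, limma adjusted p = 0.00396), or 3.39-fold, a rise that no left-out array removed. Zap70 read 6.04, 6.51, 5.31 and 6.51 in control and 7.01, 6.68, 7.36 and 6.83 in menin-deficient arrays. These groups did not overlap either, but its difference of 0.88 (SE 0.29) did not pass (limma adjusted p = 0.0748). Its other probe sets differed by -0.01 and -0.05 near background. Sh2d2a, an SH2-domain adaptor of T cells and NK cells, read 6.52, 6.96, 6.61 and 7.03 in control and 8.38, 7.78, 7.64 and 7.49 in menin-deficient arrays. It rose by 1.04 (SE 0.21, limma adjusted p = 0.0166), with menin-deficient replicate 1 the highest.

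**Figure D2:**
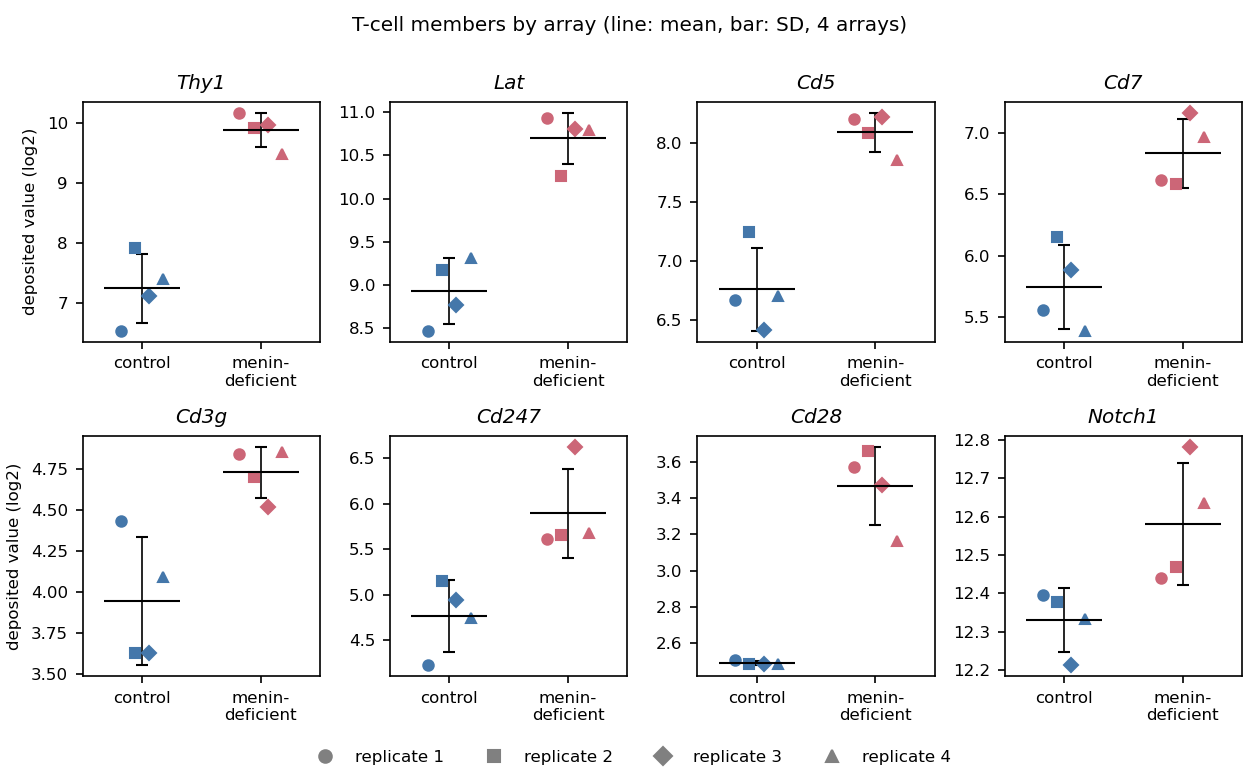
Deposited log2 values of 8 T-cell members by array, a marker shape for each replicate number, with the group mean as a line and the SD of 4 arrays as a bar. Every panel shows the menin-deficient arrays above all control arrays, from a difference of 2.65 in Thy1 to 0.25 in Notch1, whose difference did not pass the threshold.

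Coreceptors and T-lineage regulators gave few signals. Cd4, the coreceptor of helper T cells, lay at the lowest value on all arrays for 1 probe set and on 7 of 8 for the other, with 2.15 in control replicate 2. Cd8a, the coreceptor of cytotoxic T cells, read 5.84, 4.99, 5.84 and 5.48 in control and 5.86, 5.91, 5.85 and 5.86 in menin-deficient arrays on its brightest probe set. That difference of 0.34 did not pass (limma adjusted p = 0.243), although it did with the mean of the kept Cd8a probe sets (0.0305), and it was 0.15 without control replicate 2. Another Cd8a probe set lay at 2.61 to 3.83, and the rest at about 2.08. Cd6, Ptcra (the pre-T-cell receptor alpha chain) and Trat1 (a receptor-associated adaptor) were at the lowest value on every array. Gata3, a regulator of T-cell and innate lymphoid development, reached 2.34 in menin-deficient replicate 3 and was at 2.08 to 2.09 elsewhere.

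Bcl11b, which secures T-lineage commitment, differed by 0.06 on its brightest probe set (limma adjusted p = 0.762), a sign that turned to -0.06 after centring and to -0.04 after quantile normalization. Its other 3 probe sets were at the lowest value throughout. Notch1, the receptor that directs progenitors to the T lineage, read 12.40, 12.38, 12.21 and 12.33 in control and 12.44, 12.47, 12.78 and 12.64 in menin-deficient arrays. The arrays did not overlap, but the difference of 0.25 did not pass (limma adjusted p = 0.0817) and was 0.13 after centring. Its dimmer probe set differed by -0.10. Genes known as Notch targets, from the lists of other T-lineage genes, went both ways: Hes1 rose by 0.78 and Nrarp by 0.52, while Dtx1 fell by 1.04 and Hes5, on an _x_at probe set (a kind that can match several transcripts), fell by 0.72.

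Among NK-cell receptors, Ncr1 and Cd96 rose, Klrd1, Klre1 and Klrk1 did not pass, and Il2rb lay at the lowest value. Ncr1, the activating receptor NKp46, read 3.01, 3.17, 3.73 and 2.91 in control and 4.69, 4.63, 4.33 and 4.81 in menin-deficient arrays. All 4 menin-deficient arrays were raised and replicate 3 was the lowest of them. Ncr1 rose by 1.41 (SE 0.19, limma adjusted p = 0.00502), from a low control level. The probe set shared by Klrb1b and Klrb1c, lectin-like receptors of NK cells, read 7.69, 6.998, 8.04 and 7.98 in control and 9.65, 10.18, 9.55 and 10.08 in menin-deficient arrays. It rose by 2.19 (SE 0.26, limma adjusted p = 0.00528 with each probe set on its own), again with replicate 3 the lowest of its group. Which of the genes it reads cannot be told apart. A dimmer probe set annotated to Klrb1b alone differed by 1.02 (SE 0.49) and did not pass (limma adjusted p = 0.183). This is an _s_at probe set, whose probes may be shared between transcripts. There menin-deficient replicate 3 was the highest array, at 5.78.

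Klrd1, the CD94 partner of NKG2 receptors, read 9.06, 9.27, 9.09 and 9.09 in control and 9.48, 9.78, 10.67 and 9.81 in menin-deficient arrays. The groups did not overlap, and replicate 3 stood highest. Its difference of 0.81 (SE 0.24) missed the threshold (limma adjusted p = 0.0530). Without menin-deficient replicate 3 it was smaller, 0.56, and passed (adjusted p = 0.0184), as it did without menin-deficient replicate 1 (0.0362). Klre1, another lectin-like receptor, read 3.60, 4.24, 4.46 and 3.60 in control and 4.48, 5.21, 6.47 and 4.53 in menin-deficient arrays. Its difference was 1.20 (SE 0.47, limma adjusted p = 0.116) and 0.77 without replicate 3. Klrk1, the receptor NKG2D, was near background at 2.08 to 2.77 in control and 2.57 to 3.02 in menin-deficient arrays, and its difference of 0.22 did not pass (limma adjusted p = 0.412). Leaving out control replicate 2 gave 0.06, and leaving out menin-deficient replicate 3 gave 0.14. Cd96, a receptor of NK and T cells for nectin-family ligands, read 4.92, 4.42, 4.40 and 4.49 in control and 5.32, 4.85, 5.34 and 5.28 in menin-deficient arrays. One control array exceeded the lowest menin-deficient one. Its rise of 0.64 (SE 0.16, limma adjusted p = 0.0299) missed the threshold after centring (0.0591) and without control replicate 2, 3 or 4 or menin-deficient replicate 1, 3 or 4 (adjusted p from 0.0659 to 0.0738). Il2rb, the chain that IL-2 and IL-15 receptors share, was at the lowest value on all 8 arrays for both probe sets.

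The cytotoxic granule genes were measured over a wide range. Nkg7, a protein of granule membranes, read 9.19, 9.76, 9.14 and 8.86 in control and 9.92, 10.04, 10.48 and 10.14 in menin-deficient arrays. It rose by 0.91 (SE 0.21, limma adjusted p = 0.0233). That call was lost without control replicate 1, 3 or 4 or menin-deficient replicate 2, 3 or 4 (adjusted p from 0.0509 to 0.0619). Ctsw, the protease cathepsin W, read 6.07, 6.35, 6.58 and 5.86 in control and 7.39, 7.33, 8.21 and 7.38 in menin-deficient arrays. Its rise of 1.37 (SE 0.24, limma adjusted p = 0.0107) passed without any single array and was 1.16 without replicate 3.

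Gzmb, a granzyme that starts death of target cells, read 4.12, 4.82, 4.12 and 4.69 in control and 4.84, 5.66, 6.08 and 5.71 in menin-deficient arrays. In Gzmb, control replicates 1 and 3 held the same value to within 0.001, and the groups were separated by only 4.82 against 4.84. It rose by 1.14 (SE 0.30, limma adjusted p = 0.0350), a call lost without control replicate 1, 3 or 4 or menin-deficient replicate 2, 3 or 4 (adjusted p from 0.0582 to 0.0910). Gzma, the other granzyme, read 9.34, 10.33, 9.48 and 9.89 in control and 10.33, 10.25, 11.74 and 10.30 in menin-deficient arrays. Here the groups overlapped, and replicate 3 lay 1.45 above the mean of the other menin-deficient arrays. Its difference of 0.89 did not pass (limma adjusted p = 0.148) and was 0.53 without that array. Prf1, the pore-forming perforin, read 6.04, 6.11, 5.06 and 5.07 in control and 6.47, 6.32, 6.54 and 4.96 in menin-deficient arrays, with replicate 4 the lowest of all. Its difference was 0.50 (limma adjusted p = 0.450). Without menin-deficient replicate 4 it was 0.87 (0.119), and without control replicate 3 it was 0.33 (0.657).

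The chemokine Ccl5 and the T-box factors Eomes and Tbx21 did not pass, and their differences moved by over 1.5 times with single arrays left out. Ccl5, a chemokine of NK cells and effector T cells, read 7.52, 7.57, 8.23 and 7.47 in control and 8.02, 7.91, 9.14 and 8.42 in menin-deficient arrays. Its difference of 0.67 did not pass (limma adjusted p = 0.160) and was 0.42 without menin-deficient replicate 3. Eomes, a T-box factor of NK cells, read 4.79, 5.60, 5.74 and 5.12 in control and 5.65, 5.65, 6.78 and 5.52 in menin-deficient arrays. Outside replicate 3, the menin-deficient values lay within the control range, and the difference went from 0.59 (limma adjusted p = 0.256) to 0.30 without that array. Tbx21, the related factor T-bet, was the only tested member with a negative difference. It read 3.85, 3.94, 4.11 and 3.42 in control and 3.08, 2.35, 5.04 and 3.18 in menin-deficient arrays, so that replicate 3 was the highest array and the other 3 the lowest. The difference was -0.42 (limma adjusted p = 0.622), and leaving out menin-deficient replicate 3 gave -0.96 (limma adjusted p = 0.0525). Leaving out replicate 2 of that group gave -0.06 (limma adjusted p = 0.964).

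**Figure D3:**
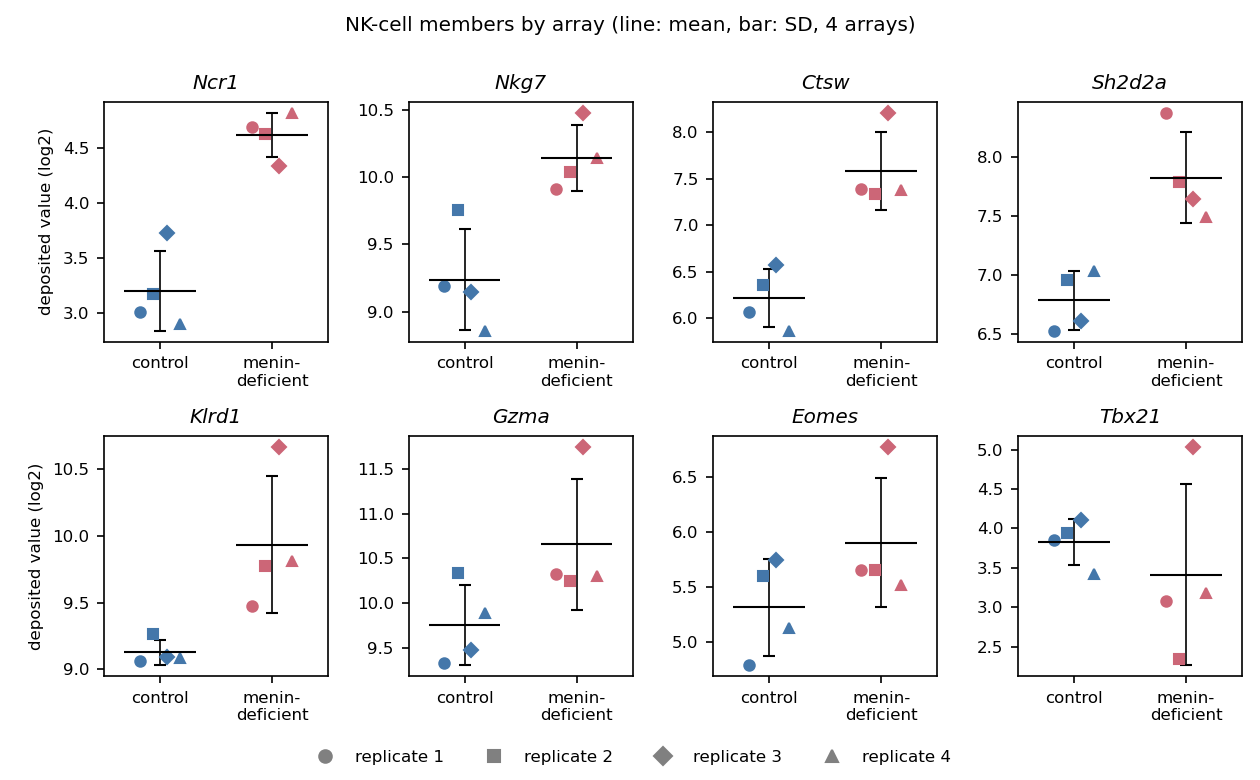
Deposited log2 values of 8 NK-cell members by array, a marker shape for each replicate number, with the group mean as a line and the SD of 4 arrays as a bar. Ncr1 and Sh2d2a are raised in all 4 menin-deficient arrays without replicate 3 leading, while in Klrd1, Gzma, Eomes and Tbx21 replicate 3 (10.67, 11.74, 6.78 and 5.04) stands above the other menin-deficient arrays.

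Menin-deficient replicate 3 was the highest of all 8 arrays in 12 of 14 tested NK-cell members and 5 of 11 T-cell members. Over all tested genes this array was the highest for 20.8%. In lists described below, it was highest for 9 of 11 neutrophil markers, 13 of 23 other NK-cell genes and 5 of 12 monocyte markers. It was highest for 8 of 28 other T-cell genes, 3 of 20 early regulators and 2 of 13 plasmacytoid dendritic cell markers. The counts were 2 of 8 erythroid, 3 of 15 pro-B cell and 0 of 11 later B-cell markers. Menin-deficient replicate 3 lay more than 0.5 above the mean of the other menin-deficient arrays in 9 NK-cell and 2 T-cell members. The latter were Cd247 and Zap70, and the share was 6.26% of all tested genes. The median of that excess was 0.76 over NK-cell members and 0.14 over T-cell members, where menin-deficient replicates 1, 2 and 4 had medians of -0.32, -0.18 and -0.21 over NK-cell members. It was not raised in Ncr1, Cd3g, Sh2d2a, Cd8a and Bcl11b, which had values at or under that mean. Without menin-deficient replicate 3, 7 T-cell members and 4 NK-cell members rose, and the median difference was 0.88 for T-cell and 0.58 for NK-cell members. Over all genes 2063 changed in either direction in that fit, against 2536 with all arrays. Nkg7, Gzmb and Cd96 lost their calls there, and Klrd1 gained one. Groups without it did not overlap in 10 T-cell and 7 NK-cell members, against 23.8% of all tested genes. Other arrays moved the NK-cell count as much or more: it was 3 without control replicate 3, control replicate 4 or menin-deficient replicate 4.

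Other genes of T cells and NK cells, from lists written for this comparison, were counted in the same fit. The counts of these lists stand against 16.2% higher and 5.17% lower over all tested genes (7.67% and 8.17% after centring). Of 28 tested genes of T-cell receptor signalling and T-cell function, 9 rose and 2 fell, with a median difference of 0.18 (7 higher and 2 lower after centring). Prkcq, the protein kinase C of T-cell receptor signalling, rose by 0.94 (SE 0.10, limma adjusted p = 0.00252), and Sit1, a membrane adaptor, by 1.07. Gimap4, a GTPase of lymphocytes, rose by 0.82, on an _s_at probe set, whose probes may be shared between transcripts. Lcp2, which encodes SLP-76, the adaptor that joins Lat, rose by 1.65 (SE 0.25, limma adjusted p = 0.00673). Its control values were 8.20, 7.93, 8.74 and 9.04 and its menin-deficient values 10.09, 9.95, 10.42 and 10.04, so Lat and Lcp2 were both raised in every menin-deficient array. Besides Dtx1, Il2ra fell, by 0.87. In that list Cd8b1, Cd40lg, Themis and Tcra, a probe set for T-cell receptor alpha, were at the lowest value on all arrays.

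Of 23 tested other NK-cell and cytotoxic genes, 6 rose and 0 fell, and the median difference was 0.49 (6 and 0 after centring). Il18rap, a subunit of the IL-18 receptor, rose by 1.78 (SE 0.29, limma adjusted p = 0.00845), with 3.95 to 4.21 in control arrays and 5.37, 5.50, 6.76 and 5.97 in the menin-deficient arrays. Tnfsf10 (TRAIL) rose by 0.70, Serpinb9, an inhibitor of granzyme B, by 0.80, and Anxa1 by 0.49. The other genes of the list that rose were the lectin-like receptors Klrc1, by 0.88, and Klrb1f, by 0.57. At the lowest value throughout were 7 genes of the list, among them Itga2, an integrin of NK cells, Klrc2 and Cd226. Over all tested genes 16.2% were higher and 5.17% lower (7.67% and 8.17% after centring), with a median of 0.11. Of 20 tested innate lymphoid and early T-lineage regulators, 4 rose and 2 fell, with a median of 0.06 (0 and 2 after centring). The lowest p-values there were those of Hes5, Lmo2 (0.46), Mef2c (-0.27) and Id3 (0.31).

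Markers of other blood cells were read beside these genes. Their counts stand against 16.2% higher and 5.17% lower over all tested genes (7.67% and 8.17% after centring). Of 12 tested monocyte and macrophage markers 4 rose and 0 fell: Ccr2, F13a1, Lyz2 and Cd68, by 0.55 to 0.77 (2 higher after centring). Their mean reached 9.10 in menin-deficient replicate 3. Control arrays ran from 7.97 to 8.45 and the remaining menin-deficient arrays from 7.96 to 8.53. None of 11 tested neutrophil and granulocyte progenitor markers changed, and their mean was 10.6 in menin-deficient replicate 3, 10.5 in replicate 4, 9.65 and 9.95 in replicates 1 and 2 and 9.41 to 9.90 in control arrays. Of 13 plasmacytoid dendritic cell markers Ccr9 and Irf7 rose (by 1.65 and 1.10, 2 higher after centring), and list means were 7.94 to 8.17 in control and 8.30 to 8.58 in menin-deficient arrays. Of 8 erythroid markers Car1 rose, by 0.73 (0 after centring), with means of 7.41 to 8.15 and 7.41 to 8.09 in control and menin-deficient arrays. The globin gene Hba-a2 had means of 9.98 and 9.76, while the probe set of Hba-a1 was at the lowest value. Of 11 markers of later B cells and plasma cells, Sdc1 and Jchain fell and H2-Ab1 rose (by 0.38), with 0 higher and 3 lower after centring, and means were 9.88 to 10.6 and 9.65 to 10.1. Of 15 pro-B cell markers, Dntt, Igll1 and Blnk rose by 0.35 to 0.39 and Rag1 fell by 0.28 (1 higher and 1 lower after centring). The list mean of tested members was 6.07 to 6.36 in control and 7.11 to 7.37 in menin-deficient arrays for T cells, and 5.73 to 6.04 and 6.45 to 7.25 for NK cells, the latter 7.25 in replicate 3. The part of admixed cells in the differences was not tested. Among genes of T cells, Cd3d, Cd3e, Cd4 and Tcra were at or near the lowest value on all arrays. Cd3g, Cd247, Thy1, Cd5 and Cd28 rose, and Cd8a did not pass. Among genes of NK cells, Il2rb was at the lowest value, while Ncr1, Nkg7 and Gzmb rose. Klrd1, Klrk1, Gzma and Prf1 did not pass. The calls of Cd3g, Cd247, Nkg7 and Gzmb were lost without some single arrays.

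**Figure D4:**
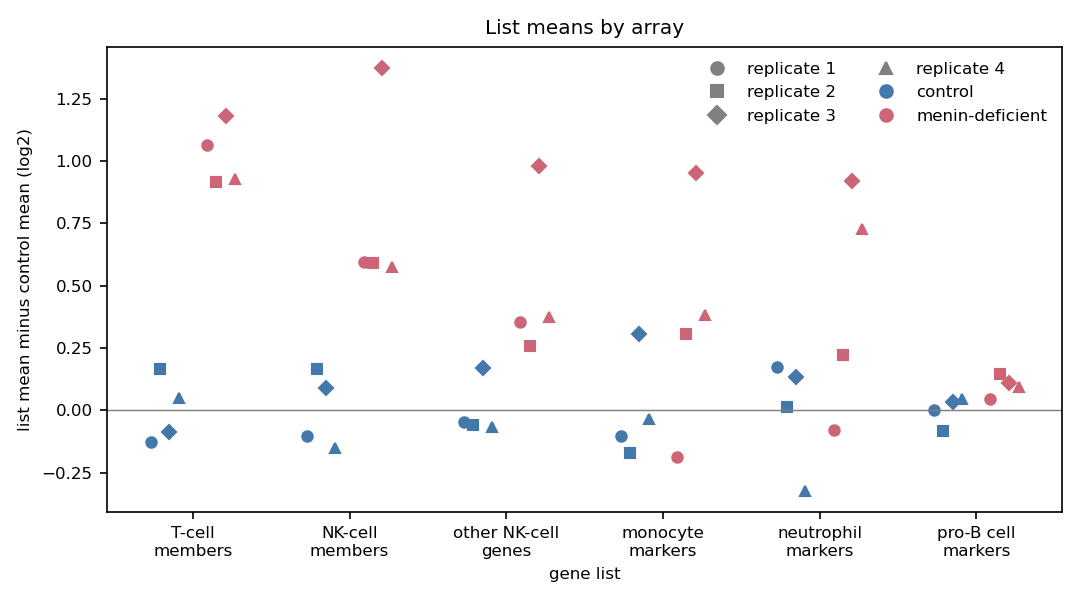
Mean of the tested genes of each list by array, minus the control mean of that list (log2), with control arrays in blue and menin-deficient arrays in red and a marker shape for each replicate number. T-cell members, NK-cell members and other NK-cell genes lie above all control arrays in all 4 menin-deficient arrays. Every list but the pro-B cell markers is highest in menin-deficient replicate 3. For T-cell members that list mean is 7.37, against 7.11 to 7.26 in the other menin-deficient arrays. Pro-B cell markers lie close to the control mean on all arrays.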

How the data were processed

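Total RNA of sorted cells was amplified, labelled with biotin and hybridised to Affymetrix mouse whole-genome arrays, per the labels' protocols. The authors deposited 1 table of log2 values for 8 arrays. Their scale was judged from the range (2.08 to 17.4). MAS5 and GCRMA are named in the submitters' processing notes, but the sources used here do not say which made the table. Groups and replicate numbers came from the sample titles. With 4 arrays a group, precision is limited by their number.

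Probe sets with 1 gene symbol (34945) above the 40th percentile of their array on at least 4 of 8 arrays were kept. The brightest stood for its gene. The genotypes were compared by moderated linear models (limma 3.58.1, lmFit and eBayes, R 4.3.3) without covariates, over all 11885 genes and, separately, over 26790 kept probe sets. Adjustment was by Benjamini-Hochberg, at 0.05. The code was tested on simulated data. No 2 arrays held the same values throughout. Alternatives covered normalization, filter, probe set choice, variance model, weighting of arrays, a block for replicate number, a threshold of 0.10 and each array left out.

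The members and gene lists were chosen with earlier results of these data known. Values of every array are given for members past the threshold and for defining markers, and of each further list up to 4 genes with the lowest p, besides markers past the threshold. The Notch targets were named after their values were seen. Figures were drawn with matplotlib 3.10.9.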

Additional observations from a re-analysis of the deposited data

Results flagged for a closer look

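For 19 of 65 probe set groups of 4 arrays with any spread, 1 array stood far from the other 3. Chance gives this in about 1 in 20 groups, and low values shared by 3 arrays give it readily. In menin-deficient replicate 3, Gzma was 11.7 (10.3 in the others), Cd247 6.63 (5.62 to 5.68), Ctsw 8.21 (7.33 to 7.39), and the 2 Eomes probe sets 6.78 (5.52 to 5.65) and 4.93 (4.58 to 4.59). Other arrays that stood apart were menin-deficient replicate 4 in Prf1 (4.96 against 6.32 to 6.54), menin-deficient replicate 2 in Cd96 (4.85 against 5.28 to 5.34) and in Cd8a (5.91 against 5.85 to 5.86), control replicate 3 in Ccl5 (8.23 against 7.47 to 7.57) and control replicate 2 in Klrd1 (9.27 against 9.06 to 9.09). The remaining cases lay near background: Cd3d 2.18 in menin-deficient replicate 4, Gata3 2.34 in menin-deficient replicate 3, dimmer probe sets of Zap70 2.83 in control replicate 3 and 2.26 in menin-deficient replicate 1, of Cd8a 3.83 in menin-deficient replicate 1, of Cd247 2.20 and Cd4 2.15 in control replicate 2, of Prf1 2.41 in control replicate 4, and Cd28 2.51 in control replicate 1.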

How the results depend on the processing

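Thy1, Lat, Cd5 and Ctsw kept their direction and their call under every alternative run, as did Cd28 and Ncr1 under all but the 60th percentile filter, which they did not pass. No tested member fell under any alternative, and of 13 called members none changed sign. Bcl11b, not called, did: -0.04 after quantile normalization, -0.06 after centring, and -0.01 to 0.15 with single arrays left out, negative where control or menin-deficient replicate 1 was missing. After quantile normalization 2067 genes changed, and 6 T-cell and 4 NK-cell members rose. Cd247 (limma adjusted p = 0.0641), Gzmb (0.0557) and Cd96 (0.0534) missed the threshold there. Without a filter 1673 genes changed, 3 NK-cell members rose and 7 member probe sets changed, with more genes in the adjustment. With a 60th percentile filter 3 T-cell members rose (Thy1, Lat and Cd5) and 7 member probe sets changed: Cd3g, Cd247, Cd7 and Cd28 were no longer tested. With each array left out in turn, 1410 to 2255 genes changed (2536 with all arrays), 5 to 7 T-cell members and 3 to 6 NK-cell members rose, 0 fell, and 7 to 11 member probe sets changed (13 with all arrays). The fewest genes changed without menin-deficient replicate 2 (1410) and control replicate 1 (1609). Member probe sets numbered 7 without control replicate 3, and 8 without control replicate 1 or 4 or menin-deficient replicate 2 or 4. Arrays of the same number did not deviate together (correlations of -0.31 to 0.046), and the main fit did not pair them. The titles number the arrays but state no pairing, and these correlations cannot exclude it. With the replicate block, 1328 genes changed, 5 T-cell and 3 NK-cell members rose and 4 member probe sets changed. Calls missed there were Cd7 (adjusted p = 0.0515), Cd247 (0.0537), Gzmb (0.06005), Nkg7 (0.0737) and Sh2d2a (0.0761). The table holds no detection calls, so values near 2.08 have no known precision.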

Other observations

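Several genes of monocytes were among the 21 largest excesses of menin-deficient replicate 3 over the other menin-deficient arrays. They were picked after their values were seen. Cd14, a receptor for bacterial lipopolysaccharide, read 6.72 there, against 2.62 to 4.36 in control arrays and 2.08 to 3.35 in the remaining ones. Fcgr4, an Fc receptor, read 6.75 there and 6.17 in control replicate 3, with 3.15 to 4.81 in all others. Treml4 read 4.91 against 2.08 to 3.38, Ms4a8a 5.38 against 2.65 to 2.96 and Sirpb1a 4.50 against 2.14 to 2.78. None differed between the groups past the threshold (limma adjusted p from 0.494 to 0.761). That menin-deficient replicate 3 held their highest values follows from this choice. Of the 12 tested monocyte and macrophage markers listed beforehand, 5 were highest in that array. Whether these genes and the NK-cell members share a source was not tested.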
